A study of Rattus norvegicus with 6 samples.

Results

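The pentose phosphate pathway and the fructose and polyol routes were described through 10 genes: G6pdx, H6pd, Pgd, Tkt, Taldo1, Rpia, Khk, Tkfc, Sord and Mlxipl. They were chosen by symbol, with earlier results of these data known, and each symbol stood on 1 row of a table of 32930 genes. All 10 passed the filter on low counts, as did 18455 genes in all. Liver mRNA was sequenced in 3 samples of the HFD group, whose animals received a high fat diet and the CMC-Na vehicle. It was also sequenced in 3 samples of the HTG group. The animals of that group received the same diet with Huazhuo Tiaozhi granule (HTG), a herbal preparation given for dyslipidaemia. By the study's animal methods, which are written for rats, the drugs were given in the same vehicle. The labels give 12 weeks for both interventions, whereas the study's animal methods give 12 weeks of diet with dosing begun partway through. No group on a normal diet was analysed here, so the comparison reads HTG on top of the diet. The labels name the animals as rats, the methods of the RNA sequencing name C57BL/6 J mice, and all 32930 rows carry mouse Ensembl gene IDs. The study's animal methods describe male Wistar rats and state no age, and no sex or age was stated for the mice named with the RNA sequencing. Nothing states how the 3 samples of a group were kept apart beyond their labels, so the p-values measure the spread between these samples.

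The oxidative branch of the pentose phosphate pathway turns glucose 6-phosphate into a pentose phosphate and yields NADPH, which the liver spends on fatty acid and cholesterol synthesis and on glutathione. The non-oxidative branch moves carbon units between sugar phosphates and links the pentoses back to glycolysis. Fructose enters the liver cell by its own kinase and bypasses the regulated steps of glycolysis, and the polyol pathway makes fructose from glucose by way of sorbitol. Mlxipl encodes ChREBP, a transcription factor that responds to sugar phosphates and is known to drive genes of glycolysis, fructose handling and fatty acid synthesis.

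In the HTG livers, Mlxipl mRNA was 2.44 times the HFD mean and Sord mRNA was 1.84 times lower, and in both genes the groups were separate. H6pd and Khk were also lower in every HTG library than in any HFD library, by smaller amounts. G6pdx, Pgd, Tkt, Rpia and Tkfc had lower HTG means with overlapping groups, and Taldo1 had nearly the same mean in both. These ratios are of mean CPM, the counts of a gene scaled to the size of its library after TMM normalisation. The separation of H6pd was narrow, with 379.6 CPM in HFD library 3 and 364.9 CPM in HTG library 1. That of Khk was narrow too, with 273.9 CPM in HFD library 2 and 269.6 CPM in HTG library 3. In edgeR's quasi-likelihood test no gene of the 10 had a Benjamini-Hochberg adjusted p under 0.05, against 1 higher gene (0.00542%) and 1 lower gene (0.00542%) among all genes tested. At an unadjusted p under 0.05, 1 of the 10 was higher (Mlxipl) and 1 was lower (Sord), where 12.3% of all genes tested were higher and 12.4% lower. The lower genes of the 10 numbered 5 with DESeq2 (13.9% of all genes tested), 5 in edgeR with no filter (8.75%), 6 without HFD library 2 (9.72%) and 2 without HFD library 3 (10.2%). The same 2 genes were those with an adjusted p under 0.1, a level reached by 5.41% of all genes tested in the higher and 5.43% in the lower direction. With DESeq2 the adjusted p of both was under 0.05, which held for 5.91% of genes in the higher and 7.1% in the lower direction. Groups did not overlap for 1 gene that was higher and 3 that were lower, against 16.5% and 15.5% of all genes tested. The median log2 fold change of the 10 genes was -0.57 and that of all genes tested was 0.03. With 3 libraries against 3, the smallest p of an exact permutation test is 0.1, so single values were not tested that way.

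**Figure D1:**
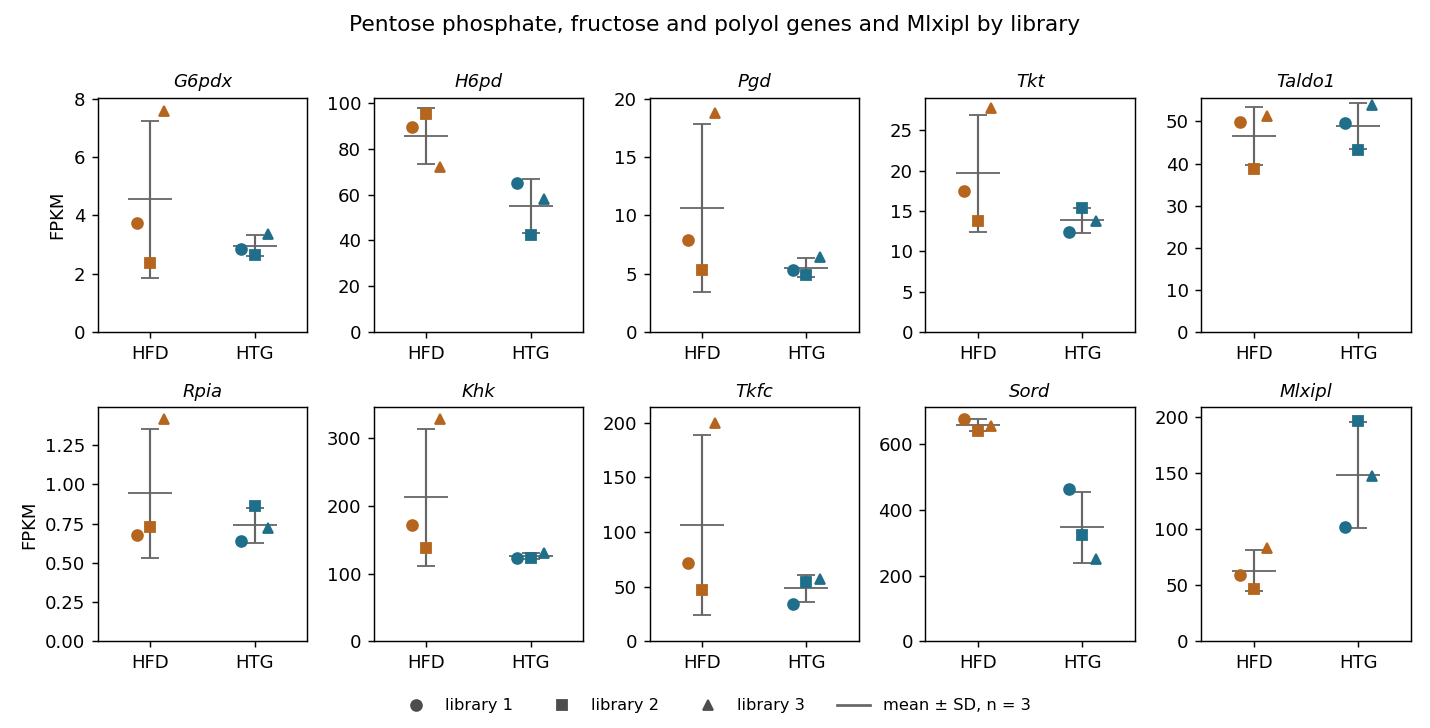
Each panel plots 1 gene, with FPKM on a linear axis from 0, HFD and HTG on the x axis, 1 point per library and bars for the mean ± SD of 3 libraries. Mlxipl sits higher and Sord, H6pd and Khk sit lower in all HTG libraries, while HFD library 3 is the highest point for G6pdx, Pgd, Tkt, Rpia, Khk and Tkfc.

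One HFD library set much of this picture. HFD library 3 held the highest CPM of all 6 libraries for 6 of the 10 genes (60%), where 19.1% of all genes tested peaked in it. Its level was over 1.5 times the mean of HFD libraries 1 and 2 for 7 of the 10 genes, against 16% of all genes tested. The excess was 3.25 times for Tkfc, 2.77 for Pgd, 2.39 for G6pdx, 2.04 for Khk, 1.92 for Rpia, 1.71 for Tkt and 1.51 for Mlxipl. H6pd (0.745 times), Sord (0.955 times) and Taldo1 (1.12 times) did not share it. Without HFD library 3 the median log2 fold change of the 10 genes was -0.18. Sord and H6pd were then the 2 genes lower at an unadjusted p under 0.05, and Mlxipl was the 1 gene higher. The genes lower at that level numbered 3 without HFD library 1 (Sord, Khk and Tkfc) and 2 without HTG library 1 (Sord and H6pd). They numbered 6 without HFD library 2 (Sord, Khk, Tkfc, Pgd, G6pdx and Tkt). Over all genes tested, 2188 of 19391 were lower without HFD library 1 and 1881 of 19352 without HFD library 2. Without HTG library 1, 2866 of 19304 were lower, and without HFD library 3, 1953 of 19234. Mlxipl was higher and Sord lower at that level in all 17 alternative settings. The cause of the HFD library 3 profile was not tested.

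**Figure D2:**
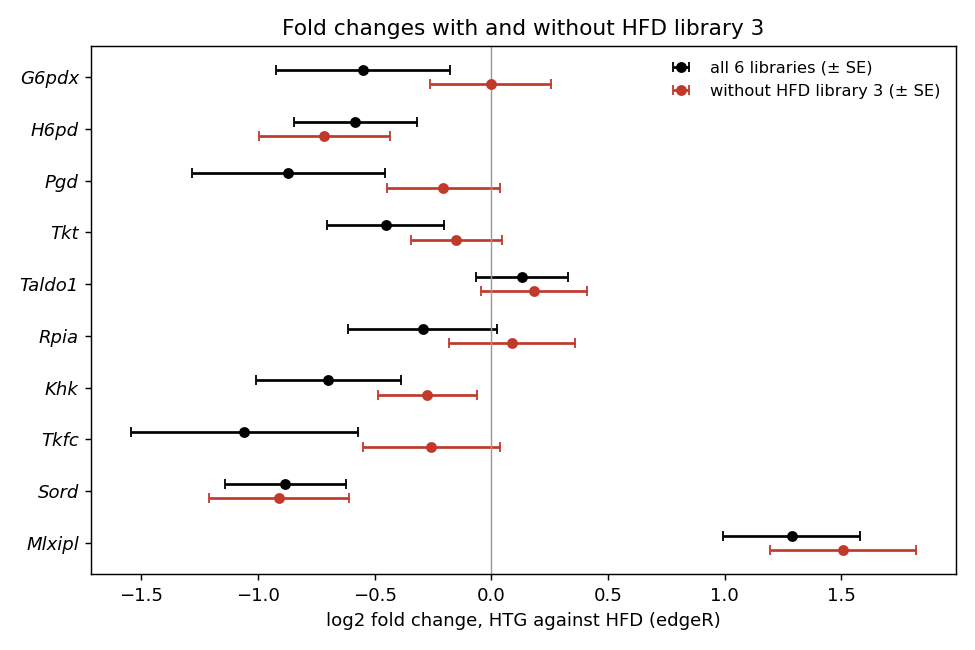
Points are log2 fold changes of HTG against HFD from edgeR on the x axis for the 10 genes, with bars of 1 SE, in all 6 libraries (black) and without HFD library 3 (red). Tkfc moves from -1.06 to -0.26 and G6pdx from -0.55 to -0.00, while Mlxipl (1.29 and 1.51) and Sord (-0.88 and -0.91) keep their place.

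Libraries held between 50648778 and 90563477 estimated counts, or between 12662194 and 22640869 fragments if 4 counts are taken as 1 fragment. That scale is an assumption from the low counts, where a count of 4 stood in 6450 cells of the table against 2549 for 3 and 1757 for 5, and 35.9% of counts from 1 to 12 were multiples of 4. On that scale a limit of 3 fragments, or 12 counts, was set for an empty gene, and all 10 genes were above it in every library. Hepatocyte markers summed to between 31754 and 38554 FPKM in HFD and between 25526 and 29696 FPKM in HTG livers, so the libraries carried the defining liver transcripts. These sums did not overlap, but they rest mostly on Alb, which held 24779 of the 31754 FPKM in HFD library 1. Alb was lower in every HTG library than in any HFD library (log2 fold change -0.28, edgeR adjusted p = 0.555). Of the 6 hepatocyte markers, 2 (Cps1 and Ass1) were lower in HTG at an unadjusted p under 0.05, against 12.4% of all genes tested. Exocrine pancreas markers summed to at most 3.52 FPKM and adipocyte markers to at most 0.39 FPKM. Prss2, Pnlip, Cel, Adipoq and Plin1 were at or under the limit in all 6 libraries. The mitochondrial chromosome took between 4.97% and 6.45% of the counts in HFD and between 9.31% and 15.2% in HTG livers. Every HTG library had a larger share than any HFD library, so the share cannot be told apart from the group. Without the mitochondrial rows Mlxipl differed by 1.28 and Sord by -0.88 on the log2 scale. Leaving out these rows mainly rescales the libraries, so it cannot show whether other genes vary with the share. The part of the share in the results was not tested.

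G6pdx encodes glucose-6-phosphate dehydrogenase, which catalyses the first and controlling step of the oxidative branch. Its FPKM, fragments scaled by transcript length and by the size of the library, was 3.74, 2.37 and 7.56 in the HFD group and 2.86, 2.65 and 3.37 in the HTG group, with values here and later in the order of libraries 1, 2 and 3. The groups overlapped, with all HTG values between those of HFD libraries 2 and 1. The log2 fold change was -0.55 ± 0.37 (SE; edgeR adjusted p = 0.399) and -0.00 without HFD library 3. The gene lies on chromosome X from 73453089 to 73472800 on the minus strand, and its span overlaps Ikbkg on the plus strand. Ikbkg held 29482 counts over the 6 libraries against 5099 for G6pdx, and the sources do not state whether counting used the strand, so the low G6pdx counts are uncertain. Ikbkg had 7.28, 12.6 and 8.26 FPKM in the HFD group and 8.09, 6.2 and 6.27 FPKM in the HTG group. Its share in the G6pdx value was not tested.

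Pgd encodes 6-phosphogluconate dehydrogenase, the enzyme of the second NADPH-yielding step. It had 7.85, 5.28 and 18.8 FPKM in the HFD group and 5.31, 4.86 and 6.4 FPKM in the HTG group. The HTG libraries lay below HFD library 1 and around HFD library 2, and HFD library 3 stood far above the rest. HTG differed by a log2 fold change of -0.87 ± 0.41 (SE; edgeR adjusted p = 0.236) and -0.21 without HFD library 3. The ratio of Pgd to G6pdx FPKM stayed between 2.1 and 2.49 in HFD and between 1.83 and 1.9 in HTG libraries, without overlap.

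H6pd encodes hexose-6-phosphate dehydrogenase, which catalyses the dehydrogenase and lactonase steps inside the endoplasmic reticulum and supplies NADPH to the enzyme that regenerates active glucocorticoid. Its level was 89.5, 95.3 and 72 FPKM in the HFD group and 65 FPKM, 42.3 FPKM and 58.3 FPKM in the HTG group. Every HTG library was below every HFD library, and HFD library 3 was the lowest of its group. The log2 fold change was -0.58 ± 0.26 (SE; edgeR adjusted p = 0.215). Without HFD library 3 it was -0.72 with an unadjusted p of 0.0377. H6pd FPKM was 9.53 times that of G6pdx in HFD library 3 and between 15.9 and 40.2 times in the other libraries.

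In the non-oxidative branch, Tkt encodes transketolase, which shuttles carbon units between pentose phosphates and glycolytic intermediates. Tkt had 17.5, 13.8 and 27.8 FPKM in the HFD group and 12.4, 15.4 and 13.7 FPKM in the HTG group. The groups overlapped around HFD library 2, and the log2 fold change was -0.45 ± 0.25 (SE; edgeR adjusted p = 0.306) and -0.15 without HFD library 3. Taldo1 encodes transaldolase, the partner of transketolase. Its level was 49.8, 38.6 and 51.2 FPKM in HFD and 49.6, 43.2 and 53.9 FPKM in HTG livers. Here neither group nor library stood out, with a log2 fold change of 0.13 ± 0.20 (SE; edgeR adjusted p = 0.715) and a whole range of CPM of 1.45 times, the narrowest of the 10 genes. The ratio of Taldo1 to Tkt FPKM was lowest in HFD library 3, at 1.84, and between 2.8 and 4.01 in the others.

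Rpia encodes ribose 5-phosphate isomerase A, which supplies ribose 5-phosphate for nucleotides. It was the lowest of the 10 genes, with 0.68, 0.73 and 1.42 FPKM in HFD and 0.64, 0.86 and 0.72 FPKM in HTG livers. These values rest on 211 to 552 estimated counts, and only HFD library 3 stood clear of the others. The log2 fold change of -0.29 ± 0.32 (SE; edgeR adjusted p = 0.602) turned to 0.087 without that library.

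Khk encodes ketohexokinase, which phosphorylates fructose on entry to the hepatocyte. Its FPKM was 172.3, 137.7 and 328 in the HFD group and 123.4, 122.3 and 130.6 in the HTG group. The HTG libraries lay close together, with a CV of 10.9% in CPM against 44.7% in HFD, and all below the lowest HFD library. Khk differed by a log2 fold change of -0.70 ± 0.31 (SE; edgeR adjusted p = 0.209). It was -0.27 without HFD library 3 (edgeR adjusted p = 0.504), so the size of the difference rested on that library. Khk-A and Khk-C, the isoforms of the enzyme, share 1 row and cannot be told apart here.

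Tkfc encodes triokinase, which phosphorylates the glyceraldehyde released when fructose 1-phosphate is split. It had 71.8, 47.3 and 199.8 FPKM in HFD and 34.5, 54.6 and 56.6 FPKM in HTG livers. HFD library 3 stood far above the rest, and the other libraries of the 2 groups overlapped. The fitted difference of -1.06 ± 0.49 (SE; edgeR adjusted p = 0.224) on the log2 scale was the most negative of the 10 genes, and it was -0.26 without HFD library 3. The span of Tkfc on chromosome 19, from 10565155 to 10583018 on the minus strand, overlaps Ddb1 and Cyb561a3 on the plus strand. Ddb1, a DNA damage-binding protein, held 33.2% as many counts as Tkfc and was itself lower in HTG (log2 fold change -1.16, edgeR adjusted p = 0.0585), and its share in the Tkfc value was not tested.

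Sord encodes sorbitol dehydrogenase, which oxidises sorbitol to fructose in the last step of the polyol pathway. It was the most abundant of the 10 genes, with 677.5, 640.6 and 656.5 FPKM in the HFD libraries. In the HTG libraries the values were 464.1, 325.2 and 252 FPKM. The HFD libraries agreed to a CV of 3.6% in CPM, the HTG libraries spread to 30.3%, and the highest HTG library stayed below the lowest HFD library. The log2 fold change was -0.88 ± 0.26 (SE; edgeR adjusted p = 0.0937), and -0.91 without HFD library 3. DESeq2 gave an adjusted p of 0.00622, over a range of 0.00622 to 0.267 across 17 alternative settings. Without HTG library 1, the HTG library nearest to the HFD group, it was -1.20 with an edgeR adjusted p of 0.044. The gene lies on chromosome 2 from 122065230 to 122095821 on the plus strand, and no other gene of the table overlaps it.

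Mlxipl, on chromosome 5 from 135118744 to 135167236 on the plus strand, was the gene of the 10 whose HTG libraries all exceeded the HFD group. Its level was 58.9, 46.8 and 82.7 FPKM in the HFD group and 101.7, 196.2 and 147.6 FPKM in the HTG group. HTG library 1 was the lowest of its group and still above HFD library 3, the highest of the other group. The log2 fold change was 1.29 ± 0.29 (SE; edgeR adjusted p = 0.0613). DESeq2 gave an adjusted p of 0.000564, over a range of 0.000564 to 0.202 across the 17 alternatives. Without HFD library 3 it was 1.51 (edgeR adjusted p = 0.144), and without HTG library 1 it was 1.45 with an edgeR adjusted p of 0.0454. Without any other single library neither Mlxipl nor Sord had an adjusted p under 0.1. Isoforms of ChREBP made from different first exons share 1 row, so ChREBP-alpha and ChREBP-beta were not separated.

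Ranked by mean FPKM in HFD livers, the order was Sord, Khk, Tkfc, H6pd, Mlxipl, Taldo1, Tkt, Pgd, G6pdx and Rpia. Sord was separate from Khk, Taldo1 from Tkt and G6pdx from Rpia, and the other neighbours in this order overlapped. In HTG livers Mlxipl stood in place 2, between Sord and Khk, and Tkfc stood in place 6, behind H6pd and Taldo1. The HTG range of Mlxipl overlapped that of Khk, and H6pd, Taldo1 and Tkfc overlapped in turn, while the remaining neighbours were separate. By median FPKM, Tkfc stood in place 4 in HFD livers, behind H6pd, and in place 5 in HTG livers, ahead of Taldo1. Mlxipl FPKM was between 0.073 and 0.126 times that of Sord in HFD and between 0.219 and 0.603 times in HTG libraries. Among all genes tested, Sord stood at percentile 99.5 in HFD livers and Rpia at percentile 40.8.

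Most other pentose phosphate genes had small differences. Of 11 tested, 0 were higher and 2 were lower at an unadjusted p under 0.05 in edgeR, and DESeq2 gave the same counts, with a median log2 fold change of -0.04. Among all genes tested 12.3% were higher and 12.4% lower in edgeR at that level. Prps1, which makes phosphoribosyl pyrophosphate for nucleotide synthesis, had 25.8, 28.5 and 24.7 CPM in HFD and 17.3, 8.7 and 13.5 CPM in HTG livers (log2 fold change -1.001, edgeR adjusted p = 0.0667). Pgm1, a phosphoglucomutase, had 209.1, 244.2 and 227.6 CPM in HFD and 168.4, 91.6 and 125.7 CPM in HTG livers (log2 fold change -0.82, edgeR adjusted p = 0.0963). In both genes every HTG library was below every HFD library. Pgls, the lactonase between G6pdx and Pgd, differed by 0.44 ± 0.23 and Rpe, the pentose epimerase, by -0.04 ± 0.14 (log2 ± SE), with overlapping groups. The number of higher genes was 1 without HFD library 1 (Pgls) and 1 without HFD library 3 (Pgm2). Of all genes tested, 2134 of 19391 and 1999 of 19234 were higher in these 2 fits. Without HFD library 3 the lower genes numbered 3, against 10.2% of all genes tested. Prpsap1 was the gene added (log2 fold change -0.57, and -0.39 in all libraries). Pgm2 and Prpsap1 were named with their values known. Tktl2 was too low to be tested, and G6pd2 and Tktl1 were not analysed here.

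Among the other genes of fructose handling, 5 of 11 were lower and 0 were higher at an unadjusted p under 0.05, against 12.4% and 12.3% of all genes tested. The median of the 11 was -0.68 on the log2 scale, and -0.45 without HFD library 3. With DESeq2, 3 of the 11 were lower at an adjusted p under 0.05, against 7.1% of all genes tested. Tpi1, the triose phosphate isomerase, had 404.3, 413.2 and 570.9 CPM in HFD and 277.6, 147.1 and 248.8 CPM in HTG livers. All HTG libraries were lower for Tpi1, which differed by -1.04, and for Hk2, a hexokinase, which differed by -0.70 (log2 fold changes, edgeR adjusted p = 0.0816 and 0.145). Slc2a5, the fructose transporter GLUT5, differed by -1.30 at no more than 9.15 CPM. A further lower gene, Slc2a2, the main glucose transporter of hepatocytes, had overlapping groups (-0.96) and was picked out with its values known. The number of lower genes was 3 without HFD library 3 and 3 without HTG library 3, and 1 was then higher without HFD library 3. Of all 19234 genes tested without HFD library 3, 1953 were lower and 1999 higher. Without HTG library 3, 1674 of 19248 were lower.

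Of 13 other polyol and uronate genes, 6 were lower and 0 were higher at an unadjusted p under 0.05, against 12.4% and 12.3% of all genes tested. The median of the 13 was -0.10 on the log2 scale, and 0.077 without HFD library 3. All 6 had an adjusted p under 0.05 with DESeq2, against 7.1% of all genes tested that were lower. Akr1b3, the aldose reductase that makes the sorbitol on which Sord acts, had 13.1, 10.8 and 16.7 CPM in HFD and 13.5, 10.2 and 14.3 CPM in HTG livers. Its groups overlapped, with a log2 fold change of -0.10 ± 0.22 (SE), which was 0.077 without HFD library 3 and 0.036 without HTG library 2. Ugdh, which makes UDP-glucuronate, had 213.1, 274.5 and 168.8 CPM in HFD and 126.1, 80.2 and 87.2 CPM in HTG livers (log2 fold change -1.16, edgeR adjusted p = 0.0612). Gulo, the last enzyme of vitamin C synthesis, had 594.9, 523.3 and 695.2 CPM in HFD and 320.6, 204 and 290.7 CPM in HTG livers (log2 fold change -1.15, edgeR adjusted p = 0.0592). Both genes were clearly separate between the groups. Cryl1, a gulonate dehydrogenase, differed by -1.02, and Akr1b7, an aldose reductase relative at under 2 CPM, by -1.62 on the log2 scale. The other 2 lower genes, Akr1a1 (-0.81) and Ugp2 (-0.92), fell outside the limit of 4 names and were named after their values were seen. Without HFD library 3 the number of higher genes was 1, Miox, against 1999 of all 19234 genes tested. Miox had 0, 0 and 23 estimated counts in HFD and 24, 12 and 20 in HTG livers, near the limit of an empty gene.

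**Figure D3:**
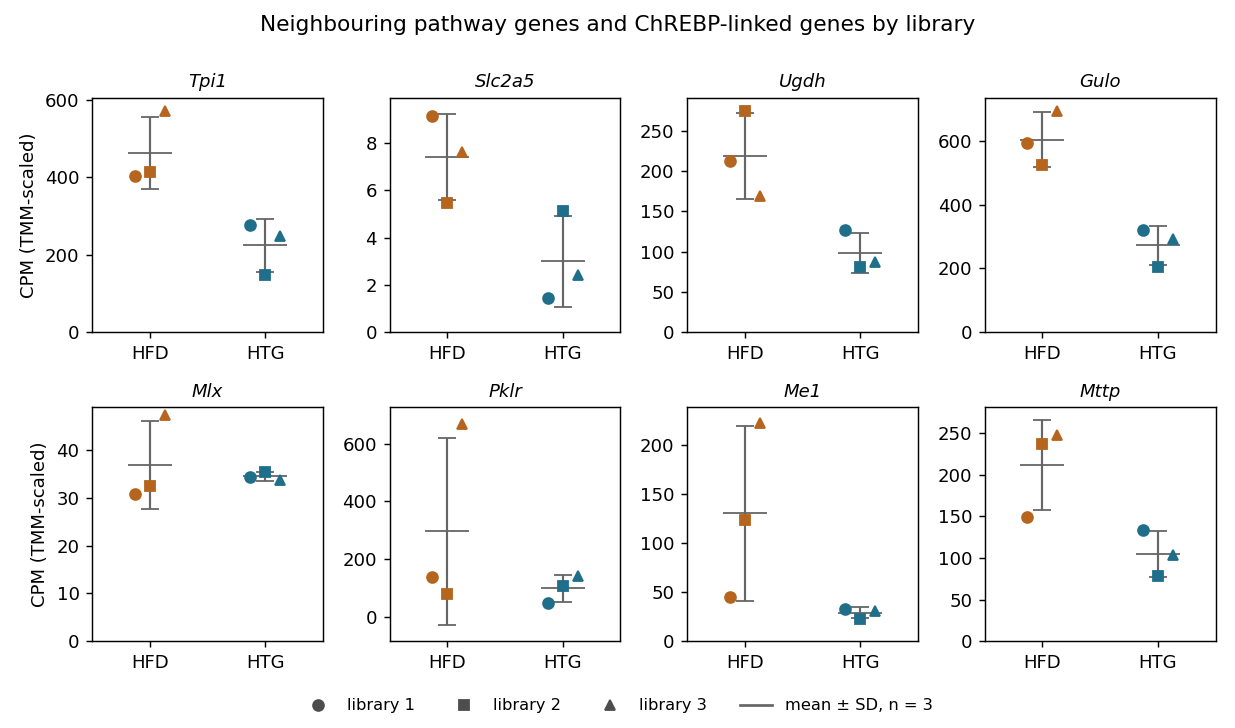
Each panel plots TMM-scaled CPM of 1 gene on a linear axis, with 1 point per library and bars for the mean ± SD of 3 libraries in HFD and HTG. Tpi1, Ugdh, Gulo, Me1 and Mttp are lower in all HTG libraries, while Mlx overlaps and Pklr is high in HFD library 3 at 669.1 CPM.

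Known partners and liver targets of ChREBP were then compared in the same way. Of 23 tested, 0 were higher and 5 were lower at an unadjusted p under 0.05, against 12.3% and 12.4% of all genes tested. With DESeq2, 3 had an adjusted p under 0.05, all lower, against 7.1%. DESeq2 gave no p for Acly and Acacb, so these could not pass there. The median log2 fold change was -1.05 in all libraries and 0.012 without HFD library 3. Mlx, the obligate partner of ChREBP, had 30.7, 32.5 and 47.3 CPM in HFD and 34.2, 35.4 and 33.7 CPM in HTG livers. Mlx differed by -0.10 ± 0.20 (0.12 without HFD library 3) and its relative Mlxip by 0.14 ± 0.20 (-0.065 without HTG library 2), as log2 fold changes ± SE. The ratio of Mlxipl to Mlx FPKM was between 3.19 and 3.83 in HFD and between 6.37 and 11 in HTG libraries, without overlap. Me1, the cytosolic malic enzyme, had 45, 123.2 and 222 CPM in HFD and 33.2, 23 and 31.1 CPM in HTG livers (log2 fold change -2.16, edgeR adjusted p = 0.0616). Mttp, which loads lipid onto apolipoprotein B, differed by -1.01 and was lower in all HTG libraries. Of the other lower genes, Acly and G6pc had overlapping groups and were named after their values were seen. The log2 fold change of Acly was -2.72, and -0.09 without HFD library 3, and that of G6pc was -1.84, and -1.80 without it.

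HFD library 3 stood out in these targets too. It was the highest library for 14 of the 23 genes, against 19.1% of all genes tested. It exceeded 1.5 times the mean of HFD libraries 1 and 2 for 10 of them, against 16% of all genes tested. The peak was not particular to these targets. HFD library 3 was also highest for 7 of 11 other fructose genes and 5 of 11 other pentose phosphate genes. The same held for 6 of 13 other NADPH sources and 2 of 13 other polyol and uronate genes. Pklr, the liver pyruvate kinase, had 138.5, 79.6 and 669.1 CPM in HFD and 48.2, 106.2 and 140.9 CPM in HTG livers, so the log2 fold change of -1.59 ± 0.75 (SE) was -0.15 without HFD library 3. Fasn, fatty acid synthase, had 144.1, 62.2 and 3131 CPM in HFD and 127.1, 325.2 and 533.6 CPM in HTG livers. Thrsp, a lipogenic protein, had 60.4, 22.2 and 1749 CPM in HFD and 47.6, 173.6 and 289.1 CPM in HTG livers. For both genes, named after their values were seen, the log2 fold change turned from -1.76 to 1.67 (Fasn) and from -1.84 to 2.04 (Thrsp) without that library. In this list 3 genes were then higher at an unadjusted p under 0.05 (Fasn, Thrsp and Pnpla3) and 4 were lower. Of all 19234 genes tested without HFD library 3, 1999 were higher and 1953 lower. Without HFD library 1, 8 of the list were lower, against 2188 of all 19391 genes tested. Txnip, a sugar-responsive inhibitor of glucose uptake, was highest in HFD library 2 instead, at 173 CPM, with overlapping groups and a log2 fold change of -1.05 ± 0.59 (SE).

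**Figure D4:**
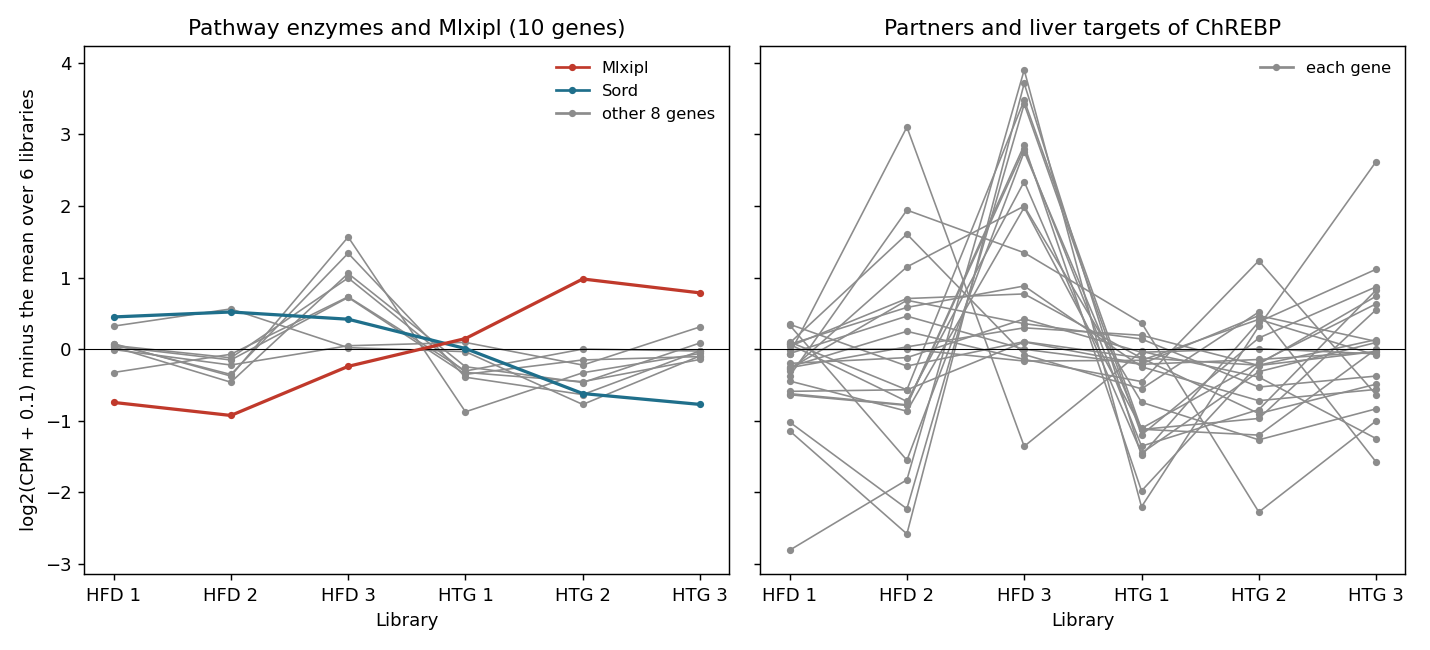
The y axis is log2(CPM + 0.1) of a gene minus its mean over the 6 libraries named on the x axis, with 1 line per gene that only joins its values. On the left HFD library 3 is the peak of 6 of the 10 genes, with Mlxipl (red) higher and Sord (blue) lower in HTG. On the right it is the peak of 14 of 23 partners and targets of ChREBP. Of all genes tested 19.1% peaked in it.

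Of 4 pericentral hepatocyte markers, 3 were lower in HTG at an unadjusted p under 0.05 (Glul, Oat and Cyp1a2), against 12.4% of all genes tested. Cyp2e1 overlapped between the groups (log2 fold change -0.57). The summed FPKM of the 4 overlapped, between 3134 and 5338 in HFD and between 2143 and 3762 in HTG libraries. Cyp2e1 held 3840 of the 5118 FPKM of this sum in HFD library 1. The part of these 4 markers in the results above was not tested. Among periportal markers 1 of 4 was lower (Gls2), with sums of 429 to 599 FPKM in HFD and 376 to 464 FPKM in HTG libraries. At the same level 1 of 6 leukocyte markers was lower (Lyz2), 1 of 5 Kupffer cell markers (Adgre1) and 1 of 6 stellate cell markers (Reln). So were 1 of 5 cholangiocyte markers (Epcam) and 1 of 5 red cell markers (Alas2), where 12.4% of all genes tested were lower. The stellate marker Des and the cholangiocyte marker Sox9 were higher, where 12.3% of all genes tested were higher, and 0 of 5 endothelial markers passed. Summed FPKM overlapped between the groups for each of these lists, but a sum can rest on 1 abundant gene. Lyz2 held 300.3 of the 350.2 FPKM of the leukocyte sum in HFD library 1. Each single marker named above as lower or higher was separate between the groups. In bulk liver, fewer cells of a type and less RNA per cell cannot be told apart.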

How the data were processed

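Poly(A) liver RNA of 3 HFD and 3 HTG samples, grouped by their labels, was sequenced as strand-marked paired-end libraries. The submitters' processing notes name HISAT2, StringTie and SAMtools and the build mRatBN7.2, although all rows carry mouse gene IDs, so positions are those printed in the table, with no build. The authors deposited estimated counts per gene, as whole numbers not normalised between libraries, and FPKM values, scaled by transcript length and library size.

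Counts were tested with edgeR 4.0.16 (glmQLFit and glmQLFTest, TMM, filterByExpr, group as the only term) in R 4.3.3, over 18455 genes, with Benjamini-Hochberg adjustment, after the scripts were tested on simulated data. DESeq2 1.42.0, limma 3.58.1 on log2(FPKM + 0.1), other scalings, filters and left-out libraries were alternatives. The genes and lists were chosen with earlier results of these data known. Of each pathway list, at most 4 genes with unadjusted p under 0.05 and separate groups were named, by size of fold change, plus Pgls, Rpe, Akr1b3, Mlx, Mlxip, Pklr and Txnip. For 4 genes, the 3 with the most similar profile were sought. Some genes that these rules pick are not reported here.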

Additional observations from a re-analysis of the deposited data

How the results depend on the processing

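Of 168 refits of the 10 fold changes over 17 alternatives, 161 kept their direction and their side of an adjusted p of 0.05, 6 passed it (Mlxipl 4, Sord 2) and 1 turned its direction. None of the 10 was under 0.05 in the main test, so none could lose that side. Changes of size were not counted. Without HFD library 3 Tkfc went from -1.06 to -0.26 and G6pdx from -0.55 to -0.00 (log2 fold changes), and both were among the 161. Genes of the 10 with an adjusted p under 0.05 numbered 0 in the edgeR test, 2 with DESeq2, 1 with at least 10 counts in every library, 1 with counts divided by 4 and between 0 and 2 with a library left out. Those lower at an unadjusted p under 0.05 numbered 1, and 5 with DESeq2, 3 with DESeq2 size factors in edgeR and 5 with no filter. They numbered 2 with limma in all 3 FPKM settings and between 1 and 6 with a library left out. Over all genes tested, 2288 of 18455 were lower, 2557 with DESeq2, 2424 with its size factors and 2605 of 29763 with no filter. In limma 2093 and 2097 of 10930 were lower, and 2712 of 29341 unfiltered. With a library left out the lower genes numbered between 1545 of 19095 and 2866 of 19304. With a library left out, the log2 fold change of Rpia ran from -0.50 to 0.087, of Akr1b3 from -0.24 to 0.077, of Mlx from -0.21 to 0.12, of Mlxip from -0.065 to 0.22, of Fasn from -2.32 to 1.67 and of Thrsp from -2.47 to 2.04. In the lists at that p, left-out libraries gave 0 to 1 higher and 2 to 3 lower pentose phosphate genes, 0 to 1 higher and 3 to 6 lower fructose genes, 0 to 1 higher polyol genes, 0 to 3 higher and 4 to 8 lower ChREBP genes and 0 to 1 higher NADPH sources, and DESeq2 gave 1 higher NADPH source. The cause of these changes was not tested. Over all genes tested, those higher at that p with a library left out numbered between 1541 of 19095 and 2134 of 19391. Rpia could not be fitted in the filtered limma settings, its mean FPKM being under 1. Over all genes tested, adjusted p under 0.05 was reached by 1 higher and 1 lower gene with edgeR and by 1091 and 1310 with DESeq2. It was reached by 369 and 315 of 15454 with at least 10 counts in every library. With counts divided by 4 it was reached by 459 and 363 of 14884, and without HTG library 1 by 234 and 419 of 19304.

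With the replicate number as a block, 2 of the 10 were lower and 1 other pentose phosphate gene was higher at an unadjusted p under 0.05. Of all 18455 genes tested in that fit, 1941 were lower and 1926 higher. Deviations of same-numbered samples correlated at -0.08, -0.07 and 0.10, so the numbers were not taken as pairs.

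Depth limits Rpia and the genes under 2 CPM. Isoforms and, where strand use is unknown, overlapping genes were not separated.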

Other observations

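NADPH also comes from malic enzyme, NADP-dependent isocitrate dehydrogenases and the folate cycle, which formed a further list. Of 13 tested, 6 were lower and 0 higher at an unadjusted p under 0.05, where 12.4% of all genes tested were lower, with a median log2 fold change of -0.71, and -0.47 without HFD library 3. With DESeq2, 6 were lower at an adjusted p under 0.05, against 7.1% of all genes tested. Idh2, the mitochondrial isocitrate dehydrogenase, had 152.2, 197 and 162.8 CPM in HFD and 139.6, 83.4 and 70.1 CPM in HTG libraries (log2 fold change -0.80, edgeR adjusted p = 0.125). Mthfd1l, which makes formate rather than NADPH, had 4.13, 7.56 and 4.66 CPM in HFD and 2.26, 1.43 and 1.67 CPM in HTG libraries (log2 fold change -1.61, edgeR adjusted p = 0.0585). Aldh1l2, a mitochondrial folate dehydrogenase, had 22, 297 and 243 counts in HFD libraries and 12, 0 and 5 counts in HTG libraries, which were at or under the limit of 12 counts. Me1 is described with the ChREBP targets. The remaining 2, Nadk (-0.71) and Nadk2 (-0.67), named after their values were seen, phosphorylate NAD and do not reduce NADP. Without HFD library 1, and with DESeq2, 1 gene of the list was higher: Nnt, the mitochondrial transhydrogenase that makes NADPH from NADH. Of all genes tested, 2134 of 19391 and 2262 of 18455 were higher in these 2 fits. Nnt had 29.3, 10.9 and 25.9 CPM in HFD and 37.3, 42.7 and 29.9 CPM in HTG livers. Its symbol stood on 2 rows, and the values are of the row with the larger summed count. Whether this mRNA gives a working enzyme in these animals was not tested.

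The genes most like 4 of the 10 were taken by the Pearson r of log2 CPM over the 6 libraries among 8014 genes with a mean of at least 10 CPM, as a description. Since the 6 points share 2 groups and HFD library 3, high values are common: 128 genes passed 0.95 for Mlxipl and 279 for Sord. For Mlxipl they were Tet2, Acap2 and Dcp1a, for Sord they included Mpc1-ps and Ghdc, for Khk Dnmt1 and Fads1, and for G6pdx Cyb5r3, Sec23b and Gm5559, all with r over 0.99.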
